A study of Mus musculus with 2 samples.

Results

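The 66 genes described here encode enzymes that attach glutathione, a sugar (glucuronic acid for most) or sulfate to small molecules. They were chosen by name, as the protein-coding mouse genes of both deposited gene tables whose symbol begins with Gsta, Gstk, Gstm, Gsto, Gstp, Gstt, Gstz, Mgst, Ugt1a, Ugt2a, Ugt2b, Ugt3a or Sult, the last followed by a number. No measured value entered this rule, although it was set with earlier results of these data known. They were 66 of 43346 gene rows, of which 21474 were protein-coding, and comprised 25 glutathione transferases, 20 UDP-glycosyltransferases and 21 sulfotransferases. The tissue was whole kidney of 8-week-old adult C57BL/6J mice, measured by polyadenylated RNA sequencing in 2 libraries of 1 group, adult kidney. Per the labels the RNA was freed of ribosomal RNA, was longer than 200 nt and was read as stranded pairs of 76 nt. Both libraries carry the same donor label and an unknown health state, are numbered as separate biological replicates, and are described as pooled from littermates of both sexes. With no second condition, the design allows a comparison of levels between genes and between the 2 libraries.

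Glutathione transferases couple electrophiles to glutathione, UDP-glucuronosyltransferases use UDP-glucuronic acid as the sugar donor, and sulfotransferases use the sulfate donor PAPS. The soluble glutathione transferases and the cytosolic sulfotransferases act in the cytosol, while the UDP-glucuronosyltransferases and the MAPEG-type glutathione transferases sit in membranes. The products are more water-soluble and leave the cell through ABC transporters. In the kidney the glutathione conjugates are also trimmed at the brush border of the proximal tubule and turned into mercapturates.

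The libraries held 87330097 expected counts over genes in replicate 2 and 67252609 in replicate 1. All 10 kidney markers, among them the nephron genes Slc34a1, Umod and Aqp2, were at 1 TPM (a level scaled to transcript length and to a common sum per library) or more in both libraries. They summed to 8075 TPM in replicate 2 and 11617.5 TPM in replicate 1. Their median log2 ratio of scaled counts, replicate 2 over replicate 1, was -0.24, and none was called. Against the label of both sexes, the 4 Y-linked genes looked up were at or near 0, with at most 0.01 TPM, while Xist stood at 31.4 TPM in replicate 2 and 26.8 TPM in replicate 1. Some markers of neighbouring tissues separated the libraries. All 5 skeletal muscle markers were called higher in replicate 2, with a summed level of 714 TPM in replicate 2 and 2.25 TPM in replicate 1, and so were all 5 lymphocyte markers, at 37.5 and 4.36 TPM. All 6 adrenal markers were called lower in replicate 2, at 0.73 TPM in replicate 2 and 52.1 TPM in replicate 1. Of the 5 fat, 5 red blood cell and 4 liver markers tested none was called, and the fifth liver marker, Apoh, had too few counts to test. The fat markers, all 5 detected, summed to 1274 TPM in replicate 2 and 1951 TPM in replicate 1. The part of these tissues in the levels below was not tested.

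Kidney RNA held high levels of a minority of the transferase genes and little of the rest. Of the 66 genes, 37 reached 1 TPM in both libraries (56.1%), against 57.2% of all protein-coding genes. At higher levels the shares parted. In both libraries, 50 TPM or more was reached by 21 of the 66 genes (31.8%), against 9.59% of protein-coding genes. Likewise 300 TPM or more was reached in both by 8 of them (12.1%), against 1.54%. The median of the 37 detected genes was 64.8 TPM, against 13.3 TPM over all 12273 detected protein-coding genes. At the other end, 14 of the 66 genes had 0 counts in both libraries. Their limit was set at 3 counts each. That is 0.0344 CPM (counts scaled to the library total) in replicate 2 and 0.0446 CPM in replicate 1. The low end was near that of all genes: 46 of the 66 genes (69.7%) reached 0.1 TPM in both libraries, against 69.3% of protein-coding genes. In whole tissue, fewer cells of a type and less RNA per cell cannot be told apart.

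**Figure D1:**
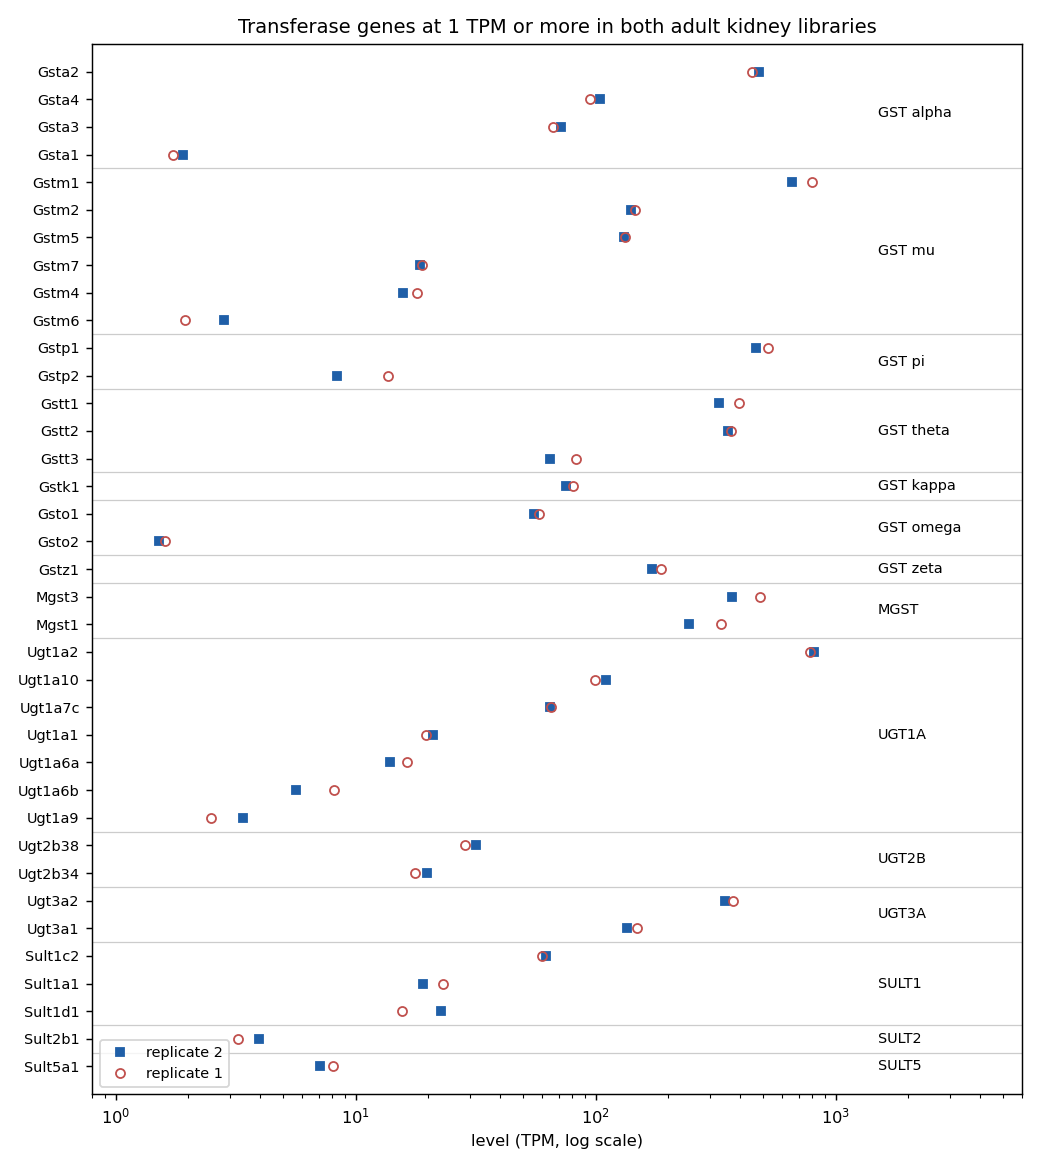
Level of each of the 37 transferase genes at 1 TPM or more in both libraries, in TPM on a log scale, with filled squares for replicate 2 and open circles for replicate 1, grouped by family. The levels run over more than 2 orders of magnitude, while the 2 libraries of a gene lie close together.

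By sum, glutathione transferases led. Their 25 genes summed to 3766 TPM in replicate 2 and 4249 TPM in replicate 1 (mean 4008 ± 342 TPM, SD, n = 2). The 20 UDP-glycosyltransferases summed to 1566 and 1562 TPM in replicates 2 and 1 (1564 ± 2.91 TPM; ± 126 TPM when TPM is rescaled without mitochondrial genes and spike-ins), and the 21 sulfotransferases to 117 and 111 TPM (114 ± 3.80 TPM). All 66 genes together held 0.569% ± 0.0335 of the TPM (SD, n = 2). Of the glutathione transferases 21 of 25 were detected, of the UDP-glycosyltransferases 11 of 20, and of the sulfotransferases 5 of 21.

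Among the soluble glutathione transferases, the mu class had the largest sum, 968 TPM in replicate 2 and 1115 TPM in replicate 1. It lies as 7 genes within 149 kb of chromosome 3, and 6 of them were detected. Gstm1, the broadly expressed mu enzyme, was measured at 659 TPM in replicate 2 and 797 TPM in replicate 1, rank 137 among protein-coding genes, and held 69.8% of the class. Gstm2 stood at 140 and 146 TPM in replicates 2 and 1. Gstm5 stood at 131 and 133 TPM. Gstm7, Gstm4 and Gstm6 were lower, with means from 18.8 down to 2.38 TPM, and Gstm3 stayed under the limit at 0.39 and 0.29 TPM. No level of one of these 7 neighbours overlapped that of another across the libraries.

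The alpha class, which conjugates products of lipid peroxidation and reduces lipid hydroperoxides, summed to 659 TPM in replicate 2 and 612 TPM in replicate 1, with all 4 genes detected. Gsta2 stood at 480 TPM in replicate 2 and 449 TPM in replicate 1 and held 73.2% of the class. Gsta4, the enzyme of the lipid aldehyde hydroxynonenal, stood at 105 and 94.7 TPM. Gsta3, known in the mouse for conjugating aflatoxin epoxide, stood at 71.8 and 66.1 TPM. Gsta1, at 1.91 and 1.74 TPM, was far below its near-copy Gsta2. The coding sequences of Gsta2 and Gsta1 were 98.0% identical, with 13 mismatches over 666 bases. The 60 coding bases with the most mismatches show how close the pair is, with the 5 differing bases in capitals, at coding positions 449 to 508 of GENCODE M21 transcripts on GRCm38, from chromosome 9, Gsta2 on the minus and Gsta1 on the plus strand.
Gsta2: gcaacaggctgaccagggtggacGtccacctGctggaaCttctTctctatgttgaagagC
Gsta1: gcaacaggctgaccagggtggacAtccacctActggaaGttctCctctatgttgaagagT
Gm10639, a protein-coding gene on chromosome 9 with a symbol outside the rule, shared 56.4% of the 31-base words of Gsta2 and was listed at 20.4 TPM in replicate 2 and 15.8 TPM in replicate 1. Of the 76-base words of the leading transcripts, the read length, 46.3% in Gsta2 and 35% in Gsta1 occurred in another gene, and the split of reads from such stretches is uncertain. The deposited posterior standard deviation of the count, the spread that the authors' quantification gave each estimate, was 4.56 for 23235 counts of Gsta2 in replicate 2 and 3.20 for 15482 in replicate 1, and for Gsta1 it was 2.26 for 87.5 counts and 1.56 for 51.4.

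The pi class rested on 1 gene. Gstp1, the pi enzyme, was measured at 464 TPM in replicate 2 and 521 TPM in replicate 1 and held 97.7% of the class. Its neighbour Gstp2 stood at 8.33 and 13.7 TPM, and Gstp3 at 1.07 and 0.56 TPM. All 3 lie within 24.2 kb of chromosome 19 on the minus strand, and the levels of Gstp1 and Gstp2 did not overlap in any library. Their coding sequences were 98.1% identical, with 12 mismatches over 630 bases and 300 bases as the longest identical run. The first 60 coding bases, shown because 6 of the 12 mismatches (in capitals) fall in them, were these (GENCODE M21, GRCm38, coding positions 1 to 60).
Gstp1: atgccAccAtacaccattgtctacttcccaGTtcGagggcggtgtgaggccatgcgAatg
Gstp2: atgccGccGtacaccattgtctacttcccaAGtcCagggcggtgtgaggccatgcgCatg
The RefSeq promoter windows of both genes (build GRCm38.p6, minus strand, 250 bases before to 50 after the start), chr19:4037863-4038162 for Gstp1 and chr19:4042172-4042471 for Gstp2, are shown because a pair of neighbours at such different levels aligned at 86.2% identity over 282 bases. Capitals mark TGAGTCA, searched on both strands.
Gstp1: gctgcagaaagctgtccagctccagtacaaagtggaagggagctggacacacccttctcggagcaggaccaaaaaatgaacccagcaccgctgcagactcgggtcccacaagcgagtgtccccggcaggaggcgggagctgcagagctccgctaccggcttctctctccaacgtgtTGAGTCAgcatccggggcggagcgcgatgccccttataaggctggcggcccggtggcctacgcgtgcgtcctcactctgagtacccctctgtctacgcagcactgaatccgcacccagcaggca
Gstp2: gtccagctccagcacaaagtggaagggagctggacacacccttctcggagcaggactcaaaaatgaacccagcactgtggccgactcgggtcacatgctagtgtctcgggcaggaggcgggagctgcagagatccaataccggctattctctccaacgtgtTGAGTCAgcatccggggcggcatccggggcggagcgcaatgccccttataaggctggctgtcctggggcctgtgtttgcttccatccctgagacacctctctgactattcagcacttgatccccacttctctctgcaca
Each window held 1 TGAGTCA, within a match to the wider pattern TGANNNNGC. RefSeq gave 70 promoter windows for 58 of the 66 genes, and TGAGTCA occurred in 9 of these 70 (12.9%), against 5.20% of all 32851 windows. TGANNNNGC occurred in 42.9% and 41.3%. The letters TATAA occurred in 45.7% of the windows of transferase genes, against 24.9% of all windows, and GTTAAT in 20% against 7.10%. The windows are not independent, since some genes have more than 1 and near-copies share sequence. These patterns were chosen after some of the windows had been read, and a match describes the letters alone. For Gstp2 the deposited SD was 16.0 for 356 counts in replicate 2 and 17.2 for 414 in replicate 1, or 4.49% and 4.15% of the estimate, while for Gstp1 it was 0.110% and 0.146%.

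The theta class, whose substrates include small halogenated alkanes, summed to 746 TPM in replicate 2 and 845 TPM in replicate 1, with 3 of its 4 genes detected. Gstt1 stood at 326 TPM in replicate 2 and 396 TPM in replicate 1. Gstt2 stood at 356 and 366 TPM. These 2 levels did not differ beyond the spread between libraries, and the order of the pair turned round between replicates. Gstt3 followed at 64.5 and 83.1 TPM, and Gstt4, in the same 63.3 kb of chromosome 10, had 4 counts in replicate 2 and 7 in replicate 1. Gstz1, the zeta enzyme that isomerises maleylacetoacetate in tyrosine breakdown, stood at 171 and 187 TPM in replicates 2 and 1. Gstk1, the kappa enzyme of mitochondria and peroxisomes, stood at 75.3 and 80.1 TPM. Gsto1, an omega enzyme with thioltransferase activity, stood at 55.4 and 57.8 TPM, and Gsto2 at 1.52 and 1.61 TPM. Each of these smaller classes therefore had 1 gene above 50 TPM, and theta had 3.

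Of the membrane-bound glutathione transferases, Mgst3 and Mgst1 were detected and Mgst2 was not. Mgst3 stood at 371 TPM in replicate 2 and 482 TPM in replicate 1. Mgst1, an enzyme of the endoplasmic reticulum and the outer mitochondrial membrane, stood at 246 and 333 TPM. Mgst2, known for leukotriene synthesis, was listed at 0.36 TPM in replicate 2, from 20 counts, and at 0.08 TPM in replicate 1, from 4 counts. The class sum, 617 TPM in replicate 2 and 815 TPM in replicate 1, moved most between libraries among the glutathione transferase classes (716 ± 140 TPM, SD, n = 2).

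The UGT1A genes are alternative first exons on chromosome 1, plus strand, each joined to the same following coding exons, so the enzymes differ in the part that binds the substrate and share the part that binds the sugar donor. All 9 leading transcripts ran from their own first exon to the common exon at chr1:88215044-88215175 of GRCm38. The join is shown for 4 of them because it marks where the first exon ends. The last 30 bases of the first exon are in lower case and the first 30 bases of the common exon in capitals (GENCODE M21).
Ugt1a2: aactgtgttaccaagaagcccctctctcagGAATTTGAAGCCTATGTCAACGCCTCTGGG
Ugt1a10: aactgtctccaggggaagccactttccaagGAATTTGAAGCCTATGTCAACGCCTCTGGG
Ugt1a6a: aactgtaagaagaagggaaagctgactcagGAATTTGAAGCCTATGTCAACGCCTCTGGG
Ugt1a1: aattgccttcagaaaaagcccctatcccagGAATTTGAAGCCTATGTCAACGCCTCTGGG
Ugt1a5 ended its first exon with the same 30 bases as Ugt1a2, and Ugt1a6b with the same as Ugt1a6a. After the join all 9 transcripts held the same 1311 bases, of which 735 are coding. Ugt1a10 and Ugt1a8 had 1318 bases after the first exon and Ugt1a7c, with 2316 bases after its first exon, ran further. A read that lies wholly in the common 1311 bases could come from any of the 9 genes, and the deposited counts, as estimates, divide such reads. Of the 31-base words of the leading Ugt1a6a transcript, 95.8% also occurred in transcripts annotated to Ugt1a7c. Most of the first exon of Ugt1a6a is therefore not gene-specific in the annotation. Ugt1a2 and Ugt1a5 were told apart upstream, where the most divergent 60 coding bases held 29 mismatches (in capitals, coding positions 280 to 339 of Ugt1a2 and 268 to 327 of Ugt1a5).
Ugt1a2: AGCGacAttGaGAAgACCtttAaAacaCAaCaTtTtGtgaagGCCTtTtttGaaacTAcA
Ugt1a5: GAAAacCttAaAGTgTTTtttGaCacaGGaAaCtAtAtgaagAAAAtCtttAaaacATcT

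Ugt1a2 had the highest mean level of the 66 genes, 815 TPM in replicate 2 and 779 TPM in replicate 1, rank 121 among protein-coding genes. In replicate 1 alone Gstm1, at 797 TPM, stood above it. Ugt1a2 held 78.7% of the UGT1A TPM, which summed to 1034 TPM in replicate 2 and 991 TPM in replicate 1. Ugt1a10 stood at 110 and 99.2 TPM in replicates 2 and 1. Ugt1a7c stood at 64.2 and 65.3 TPM. Ugt1a1, known for conjugating bilirubin, stood at 21.04 and 19.7 TPM. Lower still were Ugt1a6a at 13.9 and 16.3 TPM, Ugt1a6b at 5.63 and 8.14 TPM and Ugt1a9 at 3.38 and 2.50 TPM. Ugt1a5 and Ugt1a8 stayed under 1 TPM in both libraries. Along the locus the level followed no order of distance: the first exons of Ugt1a2 and Ugt1a1 lie 145 and 157 kb after that of Ugt1a10, the second highest of the family, and Ugt1a5, between Ugt1a6a and Ugt1a2, was at 0.43 and 0.72 TPM.

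**Figure D2:**
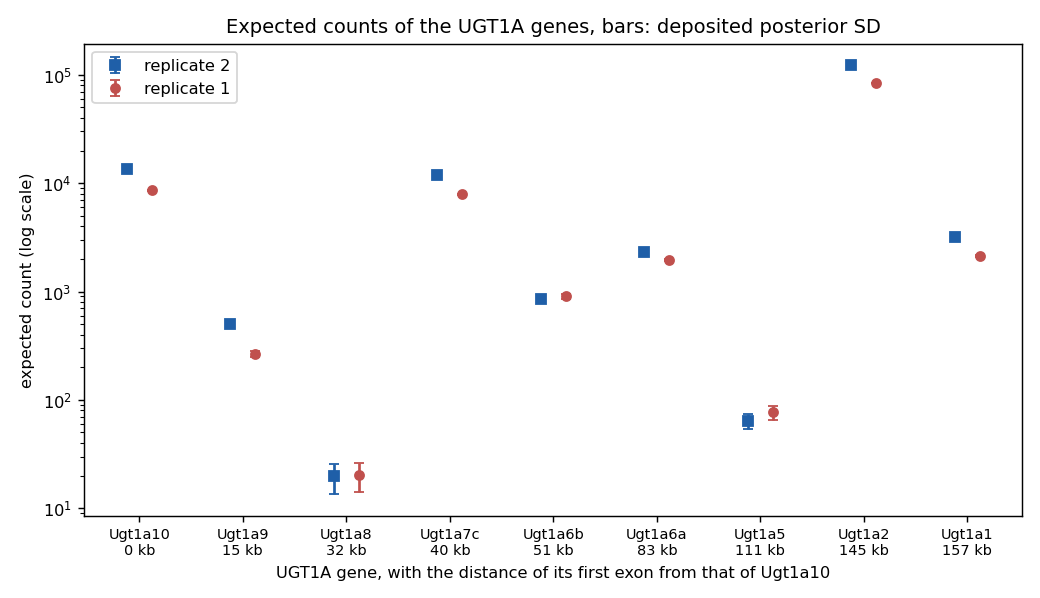
Expected count (log scale) of each UGT1A gene in replicate 2 (squares) and replicate 1 (circles), in the order of the first exons along the chromosome, with bars for the deposited posterior SD. Ugt1a2 stands highest, at 121991 and 83835 counts, and bars wide enough to see belong to Ugt1a8, Ugt1a5 and Ugt1a9.

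Within UGT1A the estimate was firmest, relative to its size, for the gene that led. The deposited SD of Ugt1a2 was 192 counts of 121991 in replicate 2 and 142 of 83835 in replicate 1, the largest SD in counts of the 66 genes and 0.157% and 0.169% of the estimate. For Ugt1a10 it was 0.996% and 1.18%. Ugt1a9, with 6.07% and 7.31%, and Ugt1a6b, with 5.36% and 4.88%, had the widest estimates of the detected transferase genes. The undetected Ugt1a5 and Ugt1a8 were wider, at 16.3% and 15.03% for Ugt1a5 and 31.3% and 30.5% for Ugt1a8.

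The UGT3A genes, whose human counterparts use sugar donors other than UDP-glucuronic acid, were both high. Ugt3a2 stood at 345 TPM in replicate 2 and 375 TPM in replicate 1. Ugt3a1 stood at 134 and 149 TPM. They lie side by side within 94.1 kb of chromosome 15 with 93.2% identical coding sequences, and their deposited SDs were 1.88 counts in replicate 2 and 2.59 counts in replicate 1 for each gene. The UGT2B genes, known for glucuronidating steroids and bile acids, were low by comparison, with a sum of 52.5 and 47.1 TPM in replicates 2 and 1. Ugt2b38 stood at 31.8 and 28.6 TPM. Ugt2b34 stood at 19.8 and 17.8 TPM. The other 5 UGT2B genes were under 1 TPM, with Ugt2b37 the highest of them at 0.65 and 0.44 TPM. Ugt2b1 had 0 counts in both libraries, and Ugt2b36 and Ugt2b35 had at most 2 counts in a library. The coding sequence of Ugt2b38 is 97.0% identical with that of Ugt2b5, which was listed at 0.30 and 0.26 TPM, and the SD of the lower Ugt2b5 was 5.01% and 5.30% of its count. Of UGT2A, Ugt2a3 had 26 counts in each library and Ugt2a2 had 0 counts.

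Sulfotransferases were the least represented of the 3 groups, and 12 of their 21 genes had 0 counts in both libraries. Sult1c2 led with 62.2 TPM in replicate 2 and 60 TPM in replicate 1, or 59.9% of the SULT1 family. Sult1a1, the phenol sulfotransferase, stood at 19.1 and 23.2 TPM. Sult1d1, which accepts catecholamines, stood at 22.6 and 15.6 TPM. The order of Sult1d1 and Sult1a1 turned round between libraries. Sult2b1, which accepts cholesterol and other hydroxysteroids, was measured at 3.97 and 3.22 TPM, and Sult5a1 at 7.13 and 8.04 TPM. Sult1e1, the oestrogen sulfotransferase, and 7 of the 9 SULT2 genes had 0 counts, and Sult2a3 had 1 count in each library. Sult1c1, both SULT3 genes and Sult6b1 were also at 0 counts, and Sult6b2 had 1 count, in replicate 1. Sult4a1, known from brain, stood at 0.98 and 0.41 TPM. Neighbours differed in level: on chromosome 5 Sult1d1 lies between Sult1b1, at 0.48 and 0.71 TPM, and Sult1e1, at 0 counts, within 78.3 kb. The 12 transferase genes on that chromosome, 9 of them UGT2A and UGT2B genes, included 3 detected ones, against 9 of 11 on chromosome 1.

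Between the libraries, the detected transferase genes differed about as much as all detected genes did, with a median absolute log2 ratio of 0.18, against 0.19 over detected protein-coding genes. A difference was called where rounded counts, after TMM scaling (trimmed mean of log ratios), were compared with an exact binomial test, two-sided, that gave a Benjamini-Hochberg adjusted p below 0.05 over all genes and a change of 2-fold or more. The test compares the reads of these libraries and its p-values hold no spread between animals beyond them. Of the 48 transferase genes tested, 3 were called higher in replicate 2 and none lower. Over all 18723 genes tested, 5.55% were called higher in replicate 2 and 2.62% lower. None of the 37 detected transferase genes was called, against 178 of 12273 detected protein-coding genes. The adjusted p alone was below 0.05 for 32 of the 48 genes and for 10781 of 18723.

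The 3 called genes were all under 1 TPM in at least 1 library. Sult4a1 had 159 counts in replicate 2 and 48 in replicate 1, 2.67-fold higher in replicate 2 (95% counting interval 1.93 to 3.77, exact binomial adjusted p = 7.62e-10). Gstp3 had 41 and 15 counts, 2.21-fold higher in replicate 2 (1.20 to 4.29, exact binomial adjusted p = 0.0138). Mgst2 had 20 and 4 counts, 4.04-fold higher in replicate 2 (1.35 to 16.2, exact binomial adjusted p = 0.0128). These rest on few molecules, and the skeletal muscle and lymphocyte markers named above were higher in the same library; their part in these 3 differences was not tested.

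Among the 37 detected genes the log2 ratio of scaled counts, replicate 2 over replicate 1, lay between -0.53 (Gstp2) and 0.71 (Gstm6), with a median of 0.12, against 0.00 over detected protein-coding genes, and 27 of 37 were above 0, against 6167 of 12273. In the deposited TPM, 14 of the 37 were higher in replicate 2, against 3351 of 12273. The log2 ratio of scaled counts was within 0.3 of 0 for 26 of the 37, against 8694 of 12273. Sult1d1, with 3742 counts in replicate 2 and 1858 in replicate 1, was 1.63-fold higher (1.54 to 1.72, exact binomial adjusted p = 3.04e-67), which is under the 2-fold limit. Gstp2 had a fold of 0.694 (0.601 to 0.802, exact binomial adjusted p = 1.51e-06), and its counts depend on the split with Gstp1. Within UGT1A, Ugt1a9 was 1.52-fold higher in replicate 2 (1.31 to 1.77), while Ugt1a6b had a fold of 0.771 (0.702 to 0.848). These intervals hold no error from dividing shared reads, and the deposited SDs of both genes were the widest of the detected transferase genes. Their counts include reads of the common exons, so they do not measure the first exons alone.

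**Figure D3:**
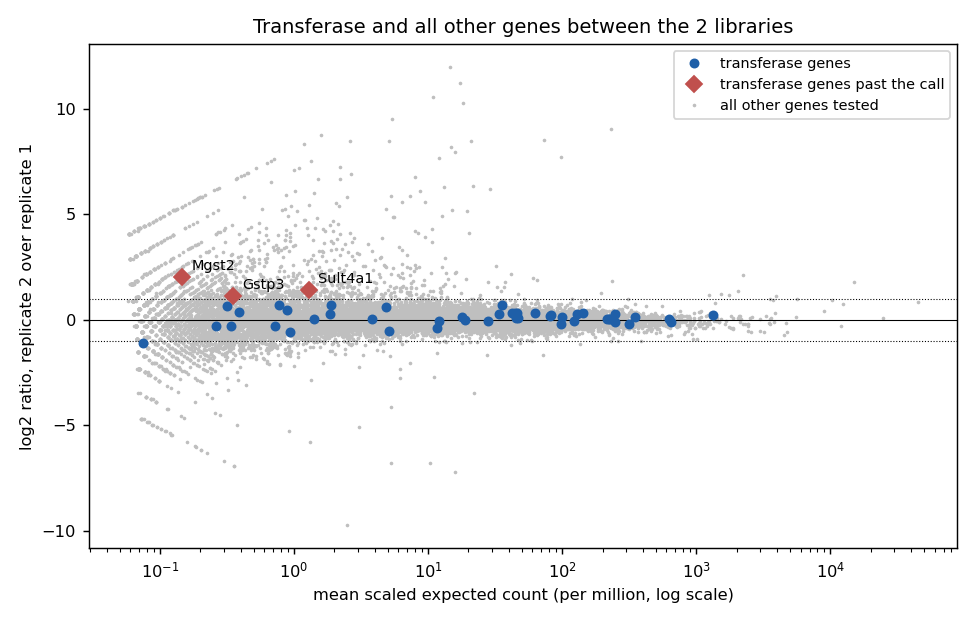
Log2 ratio of scaled counts, replicate 2 over replicate 1, against the mean scaled count (CPM, log scale) for transferase genes (blue, or red diamonds where called) and all other genes tested (grey), with dotted lines at 2-fold. The called genes Mgst2, Gstp3 and Sult4a1 lie at the low end, and the abundant transferase genes lie between the dotted lines.

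TPM ratios stood lower than count ratios for all detected transferase genes but Sult2b1. The median log2 TPM ratio, replicate 2 over replicate 1, was -0.06 over the 37 detected genes and -0.19 over detected protein-coding genes, so a level that kept its share of gene counts appears lower in TPM in replicate 2. Relative to that shift, Mgst1 stood apart. Its scaled counts had a log2 ratio of -0.04 from 10342 counts in replicate 2 and 8578 in replicate 1, while its TPM fold was 0.738, and its effective length was 1.18-fold longer in replicate 2. The effective length of a gene follows from its deposited isoform shares, so these are the same observation and not a second one. Mgst1-201, of 1167 bases, held 22.9% of Mgst1 in replicate 2 and 6.27% in replicate 1, and Mgst1-204, of 559 bases, held 59.3% and 68.8%. Gsta1 and Ugt1a7c also had TPM ratios below the general shift, with effective lengths 1.12-fold and 1.11-fold longer in replicate 2, and Sult2b1 had an effective length fold of 0.892.

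**Figure D4:**
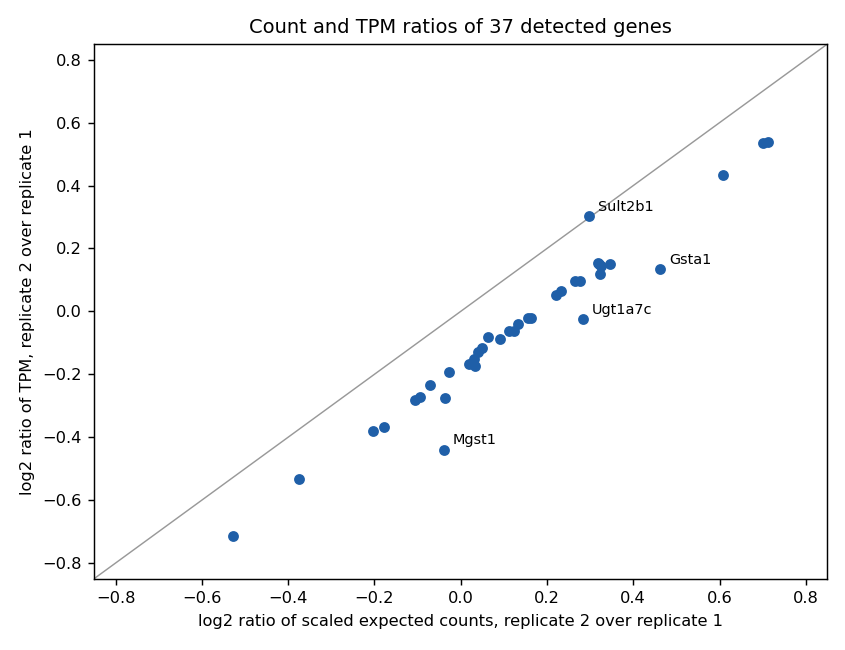
Log2 ratio of TPM against log2 ratio of scaled expected counts, both replicate 2 over replicate 1, for the 37 detected transferase genes, with the line of equality in grey. Nearly all genes lie on a line parallel to equality, with a median difference of -0.18 (TPM ratio less count ratio), and Mgst1, Gsta1 and Ugt1a7c lie further below and Sult2b1 on the line of equality.

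Of the 37 detected genes, 12 had 1 transcript in the tables and 25 had more. For 11 of these 25 a single isoform held 90% or more in both libraries, and in 8 the isoform with the highest mean share was under 60% in a library. By mean share that isoform was protein-coding for all 37, and within a single library for all but Gsta1 in replicate 1. Gsto2, at low counts of 123 in replicate 2 and 95 in replicate 1, had a different leading isoform in each library: Gsto2-202 held 87.1% in replicate 2 and 34.8% in replicate 1. Gsta1 also split unevenly, with 33.7% in replicate 2 and 62.5% in replicate 1 on a transcript annotated as a retained intron, from 87.5 and 51.4 counts. By contrast, the abundant Gsta2 kept 79.2% and 80.9% on Gsta2-201, and Ugt1a10 kept 74.5% and 72.6% on Ugt1a10-201.

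The deposited SDs give how well each count could be told from its relatives. No detected transferase gene had an SD above 10% of its count in either library, against 0.326% of detected protein-coding genes; Gstm3, Ugt1a5 and Ugt1a8, all undetected, did. An SD of 0 in both libraries was listed for 18 of the 37 detected genes, against 9801 of 12273 detected protein-coding genes. As a description of sequence, the 31-base words of the leading transcript of each gene were looked up in all other genes of the tables. Of the 37 detected genes 10 shared no such word and 27 shared some. Of the genes with none, 9 of 10 had an SD of 0 in both libraries, and of the sharing genes 9 of 27 did. Shares were highest for Ugt1a6a (97.8%), Ugt1a6b (83.2%), Gstp2 (78.1%), Gsta2 (75.5%) and Ugt1a10 (75.4%), and the share of Gstm1 was 19.1%. Across the 37 genes the share and the SD in percent of the count had a Spearman rho of 0.85 in replicate 2 and 0.86 in replicate 1. The SD itself measures the division of shared reads, so a link of the 2 is partly built in. At like shares the SD in percent still differed. In replicate 2 it was 0.157% for Ugt1a2 (65.1% shared, 121991 counts) and 6.07% for Ugt1a9 (67.8% shared, 502 counts). The part of count size was not tested. The genes are not independent, since relatives share the same words, and the same transcripts served both libraries.

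**Figure D5:**
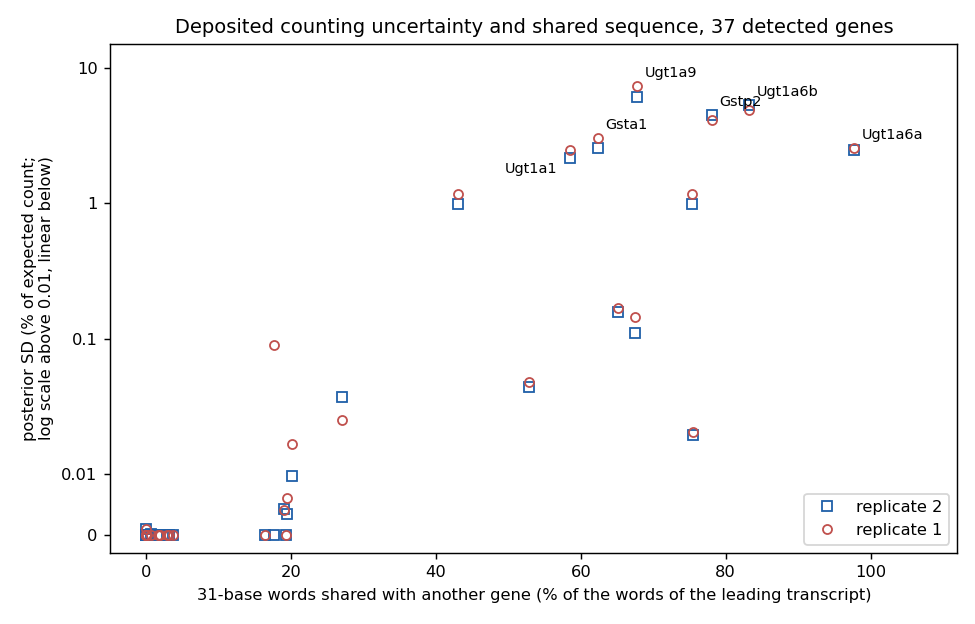
Deposited posterior SD in percent of the expected count (log scale above 0.01, linear below) against the share of 31-base words found in another gene, for the 37 detected transferase genes in replicate 2 (squares) and replicate 1 (circles). Genes with no or few shared words lie at or near 0, and Ugt1a9, Ugt1a6b and Gstp2 lie highest.

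Genes that supply the conjugation reactions were read from lists of the pathway. All 6 PAPS genes were detected, led by Bpnt1, which clears the by-product of sulfation, at 309 TPM in replicate 2 and 314 TPM in replicate 1. Papss2, which makes PAPS, stood at 98.6 and 81.9 TPM, and Slc35b2 and Papss1 at 34.3 and 35.9 TPM in replicate 2 and 46.3 and 41.9 TPM in replicate 1. Of the UDP-glucuronic acid genes 5 of 6 were detected, with Ugdh, the dehydrogenase that makes the donor, at 39.8 and 46.1 TPM, Gusb, the glucuronidase that removes the sugar, at 17.5 and 20.03 TPM, Ugp2 at 14.4 and 10.9 TPM and Slc35d1 at 10.5 and 10.3 TPM.

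All 11 genes listed for the synthesis and turnover of glutathione and the formation and breakdown of mercapturates were detected. Acy3, an aminoacylase that acts on mercapturates, stood at 754 TPM in replicate 2 and 1093 TPM in replicate 1. Ggt1, the brush-border enzyme that starts the breakdown of glutathione conjugates, stood at 583 and 777 TPM. Gss, glutathione synthetase, stood at 163 and 237 TPM, and Gclm, the modifier subunit of the first step, at 138 and 239 TPM. This list had a median log2 ratio of scaled counts of -0.16. All 9 efflux transporters were detected, with Abcg2 at 120 and 113 TPM, Abcc2 at 110 and 121 TPM, Abcc5 at 30.2 and 39.9 TPM and Abcc3 at 29.0 and 39.6 TPM. Of the regulators 9 of 10 were detected, and Hnf4a was the highest at 235 and 290 TPM. Rxra followed at 69.8 and 72.0 TPM, Nfe2l2, the activator of glutathione transferase genes under oxidative stress, at 38.4 and 45.9 TPM, and its inhibitor Keap1 at 28.4 and 40.4 TPM, while Nr1i3 was under 1 TPM. Of 17 genes of other conjugation reactions and of related enzymes, sulfatases and epoxide hydrolases included, 15 were detected. Among them Glyat stood at 125 and 106 TPM, the sulfatase Arsb at 76.4 and 91.5 TPM and the epoxide hydrolase Ephx2 at 76.1 and 82.6 TPM. No gene of these 6 lists was called different between the libraries. Of all 12273 detected protein-coding genes 178 were called, so the lack of calls says little about lists of this size.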

How the data were processed

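Polyadenylated RNA of adult kidney was measured in 2 libraries, and each gene had 1 value per library. Per the text records deposited with the tables, they are on mm10 with GENCODE annotation M4; their aligner and quantification tool were not given in the sources used here. Per the file headers, the authors deposited an expected count (an estimate of fragments, which need not be whole), TPM (per effective length, scaled so that genes and spike-ins sum alike in each library) and FPKM (per length and depth). The deposited posterior SD of each count is a signal value of that quantification, as are deposited TPM bounds, not used here. The deposited transcript tables give each isoform's share of its gene in percent. Posterior mean values served as alternatives.

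Symbols, types and sequences of transcripts came from GENCODE M21 (42462 of 43346 identifiers matched), promoter windows from RefSeq GRCm38.p6. Rows named by numbers (26248, each at 0) and 97 rows of spike-ins (2.29% of expected counts in replicate 2, 1.59% in replicate 1) were left out of library sizes. Counts were rounded for the exact binomial test, run for genes with 10 or more summed counts (prior count 0.5 for the ratio), after TMM scaling in edgeR 4.0.16 under R 4.3.3 (factors 0.977 for replicate 2 and 1.02 for replicate 1); DESeq2 1.42.0 size factors were an alternative. Tests ran in Python 3.11.15 with SciPy 1.17.1, and were tested on simulated data. Coding sequences were aligned with Biopython 1.88. Intervals and the limit of 3 counts cover counting error only. Shared words were read from the protein-coding transcript with the highest deposited share, or the longest where all were at 0; its length in M21 can differ from that in the tables.

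Values per library are given for the 3 highest genes of each family, every gene at a mean of 50 TPM or more, every gene called different and, of each pathway list, the 4 highest (1 of these genes is not reported here); further genes were named after their values were seen. The members and lists were chosen with earlier results of these data known. Junction and contig tables on mm9 were not used here.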

Additional observations from a re-analysis of the deposited data

How the results depend on the processing

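With a minimum of 100 summed counts, 1 transferase gene, Sult4a1, was called higher in replicate 2, since Gstp3 and Mgst2 fall under it, with 503 genes higher and 110 lower overall. With a fold minimum of 1.5, 7 transferase genes were called higher (also Sult1d1, Ugt2b37, Gstm6 and Ugt1a9), with 1751 genes higher and 946 lower overall. Neither DESeq2 size factors, library totals, a minimum of 1 count, posterior mean counts nor a shift by 1 posterior SD moved these counts by over 1.5 times. Scaling by library totals turned 6 uncalled log2 ratios just below 0: Sult5a1 -0.035, Gstz1 -0.0277, Gsto2 -0.0042, Ugt3a2 -0.0187, Gstp1 -0.0478 and Ugt3a1 -0.0381. That scaling lowers every ratio by the same factor by construction.

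The mean family sums moved by unit. In FPKM they were 3232 for glutathione transferases, 1264 for UDP-glycosyltransferases, 92.1 for sulfotransferases and 4588 for all. Rescaled to the same total without mitochondrial genes and spike-ins they were 4843, 1895, 138 and 6877 TPM, and by library, replicate 2 then replicate 1, glutathione transferases had 4771 and 4915 TPM, UDP-glycosyltransferases 1984 and 1807 TPM (SD 126) and sulfotransferases 148 and 129 TPM (SD 13.5). The near-equal sums of UDP-glycosyltransferases in the 2 libraries (SD 2.91) thus held on the deposited TPM scale and not on this one. Posterior mean TPM gave 1556 TPM for UDP-glycosyltransferases. With 1 library left out, the sums ranged over the values of the single libraries given above: 3766 to 4249, 1562 to 1566, 111 to 117 and 5449 to 5922 TPM. The number of detected genes stayed within 1.5 times under every alternative. Genes with an uncertain count numbered 6 above 5% and 1 above 20%, against 3 above 10%. With replicate 1 alone, 4 detected genes had a leading isoform under 60%, against 8 with both. After the data were seen, words of 76 bases, the read length, were added: 11 genes had at least 50% of them shared, against 18 for 31 bases.

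No paired analysis was possible because there is 1 group. With 1 library for each replicate number, the spread between animals is not known.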
